A study of Mus musculus with 30 samples.

Results

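Hox genes encode homeobox transcription factors that give cells along the head-to-tail axis their positional identity. In the mouse they lie in 4 clusters, and a paralog number gives each gene its place in its cluster, from 1 at the 3′ end to 13 at the 5′ end. Genes of low number are switched on earlier and further forward in the embryo than genes of high number, and those of paralogs 9 to 13 pattern the hindgut, the posterior trunk and the limb. Adult connective tissue cells keep part of this code, which makes the mesenchyme of the gut, a tube with a foregut, midgut and hindgut origin along its length, a place where it can be read. Described here are 38 Hox genes out of 32316 gene symbols. There were 10 in cluster A (GRCm38, chromosome 6, 52162417 to 52260880), 10 in cluster B (chromosome 11, 96194316 to 96368256), 9 in cluster C (chromosome 15, 102921103 to 103036852) and 9 in cluster D (chromosome 2, 74668310 to 74765142).

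RNA was sequenced from 10 populations of mesenchymal stromal cells sorted from the intestinal lamina propria of 3 mice, with 3 replicates per population and 30 libraries in all. Every mouse was of the strain C57BL6/Nrj, untreated and 8-10 weeks old, and the labels name no genetic modification. The small intestine gave pericytes (PDGFRa-ESAM-1+PDPN-), smooth muscle cells (SMC, PDGFRa-ESAM-1+PDPN+), CD34+ fibroblasts (FB, ESAM-1-PDGFRaintCD34+), Fgfr2+ FB (ESAM-1-PDGFRaintCD34-) and PDGFRα hi FB (ESAM-1-PDGFRahiCD34-). The colon gave pericytes, CD81+ FB (ESAM-1-PDPNintCD34+CD90-), CD90+ FB (ESAM-1-CD34+PDPNhiCD90+), Fgfr2+ FB (ESAM-1-PDPNhiCD34+CD90-) and PDGFRα hi FB (ESAM-1-PDPN+CD34-). Dead, lineage-positive, CD31+, BP3+, EpCAM+ and NCAMhi cells were gated out. FB gates differed between the tissues, there was no colonic SMC library, and the gate of small intestinal CD34+ FB holds more than 1 kind of FB. Total estimated counts ran from 2245052 in replicate 3 of small intestinal Fgfr2+ FB to 19096945 in a colonic CD90+ FB library, with a median of 9601683.

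Marker levels matched most of the sort labels. *Pdgfra*, whose product was used to gate small intestinal cells, was highest in PDGFRα hi FB, at 6517 ± 324 CPM (counts scaled to library size; mean ± SD, n = 3) in small intestinal and 2445 ± 87.6 CPM in colonic libraries, against 10.7 ± 0.475 and 10.9 ± 2.24 CPM in the pericytes. The 5 pericyte markers summed to 41039 ± 8404 CPM in pericytes of the small intestine and 40397 ± 10215 CPM in those of the colon, most of it *Rgs5*. They also summed to 5245 ± 1878 CPM in SMC and to 3922 ± 319 CPM in small intestinal CD34+ FB, but to 171 ± 45.3 CPM in colonic CD81+ and 222 ± 80.3 CPM in CD90+ FB. The other FB likewise had more in the small intestine, with 3083 ± 279 against 447 ± 36.3 CPM in PDGFRα hi FB and 2008 ± 151 against 653 ± 118 CPM in Fgfr2+ FB. *Rgs5* was called lower in the colon, by the test used below for Hox genes, in all 3 FB comparisons (log2 fold changes -2.29, -1.96 and, for CD34-gated FB, -5.73). Another of the 5, *Abcc9*, was called lower in colonic PDGFRα hi FB (-3.13) but higher in colonic CD34-gated FB (73.4 against 23.3 CPM, 1.53, adjusted p = 0.0413), with overlap and lost without 7 of 9 libraries. *Cspg4* was called lower in colonic CD34-gated FB (-1.85), also lost without 7 of 9. The 5 smooth muscle markers, with *Myh11* the most abundant, summed to 15583 ± 1691 CPM in SMC, 8179.6 ± 113 CPM in colonic pericytes and 2955 ± 477 CPM in small intestinal pericytes. In 2 matched FB pairs the colonic sums were the lower ones, at 493 ± 174 beside 1596 ± 501 CPM for the PDGFRα hi gate and 99.5 ± 53.7 beside 383 ± 106 CPM for Fgfr2+ cells. *Des* was called lower in colonic PDGFRα hi (-3.83) and Fgfr2+ FB (-2.47), and *Myh11* in colonic Fgfr2+ FB (-2.1), lost without 4 of 6 libraries. *Myh11* was called higher in colonic than small intestinal pericytes (6993 ± 158 against 1585 ± 513 CPM, 2.14 ± 0.50, adjusted p = 0.0119), whereas *Des* was at 715 ± 66.1 and 1141 ± 53.2 CPM. The endothelial marker *Tek* was called lower in colonic pericytes, at 0.276 ± 0.417 against 110.5 ± 72.4 CPM (-8.74 ± 1.00, adjusted p = 4.73e-06), and endothelial sums were 53.3 ± 17.2 and 196 ± 71.9 CPM. *Lyz2*, a macrophage marker, was called higher (adjusted p = 0.029), with 0, 93.4 and 0.359 CPM in the colon against 0, 0 and 0.123 CPM, and lost without 3 of 6 libraries. The 5 fibroblast markers of pericytes summed to 1826 ± 68.2 CPM in the colon and 3218 ± 660.5 CPM in the small intestine, and *Ano1*, a channel of interstitial cells of Cajal, stood at 723 and 779 CPM with *Kit* at 0.0420 and 2.93 CPM. In PDGFRα hi FB *Ano1* was called higher in the colon (78.9 ± 2.3 against 0.809 ± 1.3 CPM, 6.37 ± 0.84, adjusted p = 3.18e-05). The 5 epithelial markers summed to at most 10.6 CPM in any population and 5 immune markers to at most 41.5 CPM. Both highest means were those of colonic pericytes and rested on replicate 2. By replicate the sums there were 0, 31.6 and 0.0718 CPM (epithelial) and 10.4, 102 and 11.7 CPM (immune). Endothelial markers were highest in colonic CD81+ FB (356 ± 35.3 CPM, mostly *Tek*), glial and neuronal markers in small intestinal pericytes (15.5 ± 11.7 CPM) and mesothelial markers in colonic CD81+ FB (6.70 ± 8.98 CPM). *Thy1*, the gene for CD90, reached 197 ± 51.3 CPM in CD90+ FB but was also at 221 ± 177 and 142 ± 97.0 CPM in the small intestinal and colonic pericytes. The part of such differences in the Hox results was not tested.

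Of the 38 genes, 31 had enough counts to be tested (at least 6 in at least 3 libraries): all 10 of cluster A, 8 of cluster B, 6 of cluster C and 7 of cluster D. The 7 others were *Hoxb9*, *Hoxb13*, *Hoxc11*, *Hoxc12*, *Hoxc13*, *Hoxd1* and *Hoxd12*. *Hoxb13* and *Hoxd1* had no count in any library, and *Hoxc13* had 8 in all. *Hoxc12* had 401 counts, of which 400 lay in replicate 2 of colonic CD81+ FB. *Hoxd12* had 36, with 28 in replicate 3 of small intestinal pericytes and the other 8 in replicate 1 of colonic CD90+ FB. *Hoxc11* had 47, of which 32 lay in replicate 3 of colonic Fgfr2+ FB, while the 40 counts of *Hoxb9* were spread thinly, with at most 8 in a library. A count of 0 allows up to 3 counts, which is 0.142 to 1.04 CPM depending on the library (median 0.313). Such limits cover counting error only.

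Set per kb of transcript, so that genes can be compared, the most abundant member averaged over all populations was *Hoxa5* in cluster A (18 CPM per kb), *Hoxb3* in cluster B (24.2), *Hoxc6* in cluster C (29.1) and *Hoxd8* in cluster D (9.53). The least abundant tested members were *Hoxa4* (3.35 CPM per kb), *Hoxb8* (1.44), *Hoxc10* (1.36) and *Hoxd3* (1.28). These pooled ranks did not hold in each population. *Hoxa5* led cluster A in small intestinal pericytes alone, and *Hoxc6* and *Hoxd8* led their clusters in no colonic population. Leading genes of clusters A, C and D differed by tissue in pericytes, while *Hoxb5* led cluster B in both pericyte populations and *Hoxb3* in every FB population. In small intestinal pericytes the top of clusters A to D was *Hoxa5* (62.2 CPM per kb), *Hoxb5* (106), *Hoxc6* (77.2) and *Hoxd8* (4.59), whereas in colonic pericytes it was *Hoxa9* (109.5), *Hoxb5* (30), *Hoxc9* (8.00) and *Hoxd9* (12.2).

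**Figure D1:**
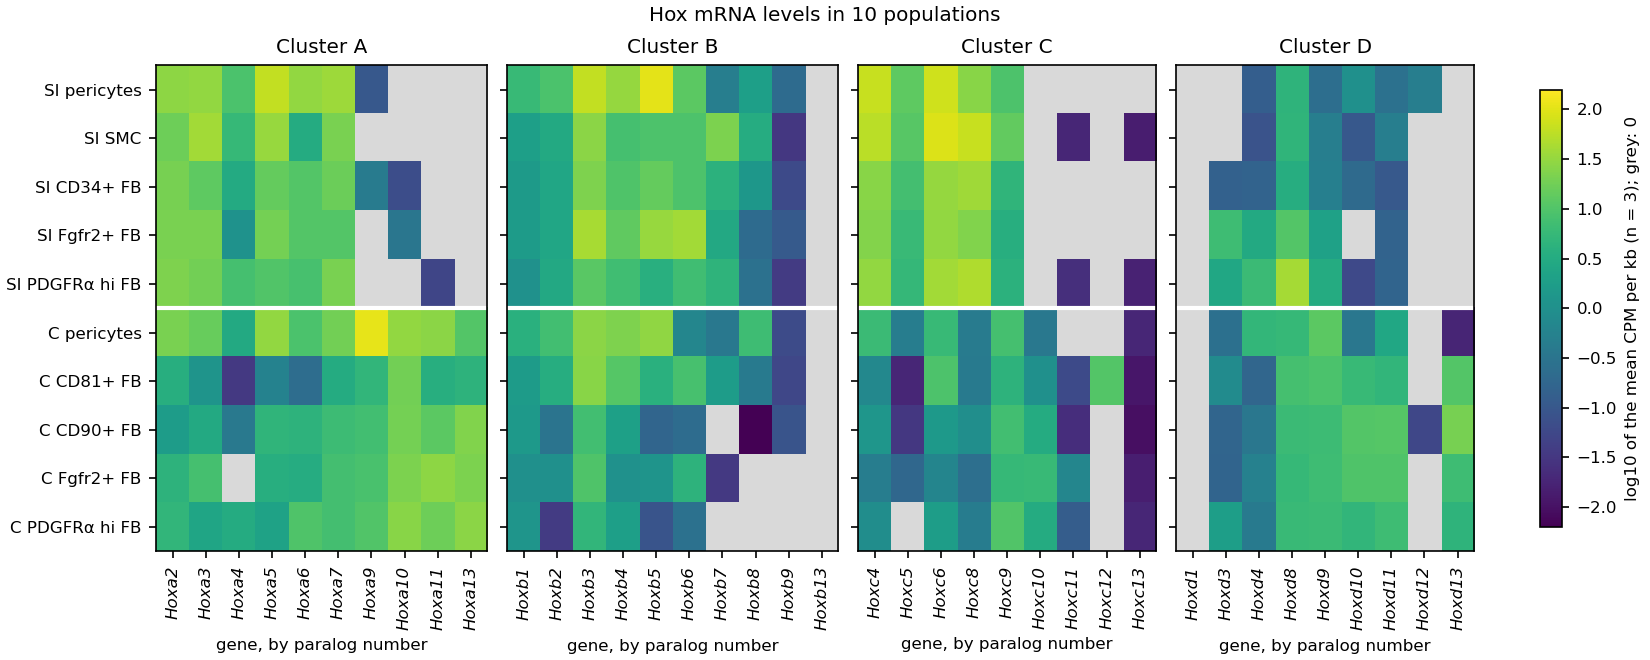
Mean level of each of the 38 Hox genes in the 10 populations, as log10 of CPM per kb (n = 3; grey marks a mean of 0), with 1 panel per cluster, genes in paralog order from left to right, small intestinal (SI) populations above the white line and colonic (C) populations below it. In cluster A the columns of *Hoxa10*, *Hoxa11* and *Hoxa13* are grey or near 0 above the line and filled below it, and in cluster C *Hoxc4* to *Hoxc8* are high above the line.

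The share of high paralog numbers differed between the tissues. Paralogs 9 to 13 made up 1.98% ± 1.44 of the summed Hox CPM per kb in small intestinal pericytes, 3.3% ± 0.371 in SMC, 2.39% ± 0.469 in CD34+ FB, 2.47% ± 2.1 in Fgfr2+ FB and 2.52% ± 1.07 in PDGFRα hi FB (SD, n = 3 each). In the colon they made up 46.2% ± 9.45 in pericytes, 47.5% ± 9.77 in CD81+ FB, 74.2% ± 2.58 in CD90+ FB, 71.1% ± 7.59 in Fgfr2+ FB and 71.5% ± 5.35 in PDGFRα hi FB. The CD81+ share includes the untested *Hoxc12*, at 10.6 CPM per kb on average and nearly all from replicate 2. That replicate had a share of 57.1%, beside 48.0% and 37.5% in replicates 1 and 3. No small intestinal library was above 3.87% and no colonic library below 35.9%, so the 2 sets of 15 did not overlap. This did not hold in each cluster: in cluster B the share was at most 0.724% on average in any population. In cluster D it was 47.3% ± 46.3 in small intestinal and 45.9% ± 34.8 in colonic pericytes. The first of these rests on a cluster D sum of 6.73 ± 8.60 CPM per kb. With 0 cluster D genes above 3 counts in every library there, it cannot show equal shares. Mean cluster D shares were 6.29% to 19.4% in the other small intestinal populations and 74.5% to 88.2% in colonic FB. The highest paralog number found above 3 counts in every library of a population was 9 in each of the 5 small intestinal populations and 13 in each of the 5 colonic ones. Colonic pericytes and CD81+ FB had the lowest shares in the colon. Both also held the most cluster B transcripts there, with 98.8 ± 32.6 and 56.5 ± 12 CPM per kb, against 11.5 ± 2.93 in CD90+ FB, 18.6 ± 16.7 in Fgfr2+ FB and 8.39 ± 6.48 in PDGFRα hi FB. Without regard to number, the summed Hox level was highest in small intestinal pericytes (628 ± 99.4 CPM per kb) and lowest in the 4 colonic FB populations, CD81+ (163 ± 7.74), CD90+ (164 ± 33.0), PDGFRα hi (166 ± 69.0) and Fgfr2+ (179 ± 33.4), which lay within their spread of each other. In sorted bulk RNA, fewer cells that express a gene and less RNA of it per cell cannot be told apart.

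**Figure D2:**
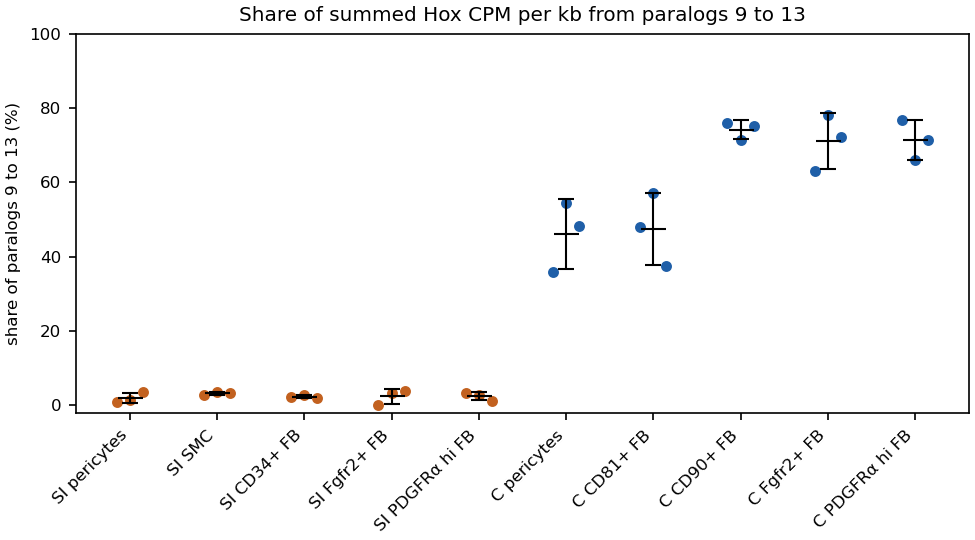
Share of paralogs 9 to 13 in the summed Hox CPM per kb (%), for each library (points; orange, small intestine; blue, colon) with the mean and SD of each population (n = 3). The 15 small intestinal libraries lie at or below 3.87% and the 15 colonic libraries at or above 35.9%.

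To ask how counterparts of the 2 tissues differ, each colonic population was compared with its small intestinal match in edgeR's quasi-likelihood test with Benjamini-Hochberg adjustment over 17542 genes, and a gene was called when its adjusted p was under 0.05 and its log2 fold change beyond 1.5 in either direction. In pericytes 5 Hox genes were called higher in the colon (2.74% of all tested genes were) and 4 lower (2.98%). Among PDGFRα hi FB 5 were higher (0.627% of all) and 4 lower (0.336%). Fgfr2+ FB had 8 higher (0.941%) and 4 lower (0.513%). For the CD34-gated FB, where the mean of colonic CD81+ and CD90+ FB was set against small intestinal CD34+ FB, 6 were higher (0.137%) and 4 lower (0.507%). Colonic Fgfr2+ FB, also sorted as CD34+, were not part of that mean. Every Hox gene called higher in the colon was of paralogs 9 to 13, and every Hox gene called lower was of paralogs 1 to 8. With genes at 0 in every library on 1 side of a comparison set to their bound, the median log2 fold change of the 10 tested members of paralogs 9 to 13 was 4.35 in pericytes, 5.73 in PDGFRα hi FB, 5.14 in Fgfr2+ FB and 5.49 in CD34-gated FB. That of the 21 tested members of paralogs 1 to 8 was -1.01, -3.01, -2.40 and -2.99, and that of all genes 0.00, -0.02, 0.01 and 0.01. Since genes passed the count filter partly through the tissue where they were high, these medians are a description.

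Over the 4 comparisons, 6 Hox genes were called in all of them, 9 more in 1 to 3 of them and 16 in none. Of all 17542 tested genes, 12 (0.0684%) were called in all 4 and 7.51% in 1 to 3. The 6 were *Hoxa9*, *Hoxa10*, *Hoxa11* and *Hoxa13*, higher in the colon, and *Hoxc4* and *Hoxc8*, lower in the colon. These calls also held in every fit that left out 1 library, except that of *Hoxa9* in CD34-gated FB, which was lost without replicate 2 or replicate 3 of small intestinal CD34+ FB (highest adjusted p 0.0644). Fitted to the 6 pericyte libraries alone, none of 13361 genes was called in pericytes, and 11 of 25 tested Hox genes had an unadjusted p under 0.05. For PDGFRα hi FB 19 Hox genes were called from their 6 libraries alone (2.79% of all genes in that fit) and 17 by DESeq2 (2.3%), and for CD34-gated FB 17 by DESeq2 (1.41%). Called genes kept their direction under both other normalizations that were run. With length-scaled TPM in place of counts, the calls of *Hoxa9* and *Hoxc6* in CD34-gated FB, *Hoxb6* in pericytes, *Hoxb3* in PDGFRα hi FB and *Hoxb3*, *Hoxc6* and *Hoxc10* in Fgfr2+ FB were lost.

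**Figure D3:**
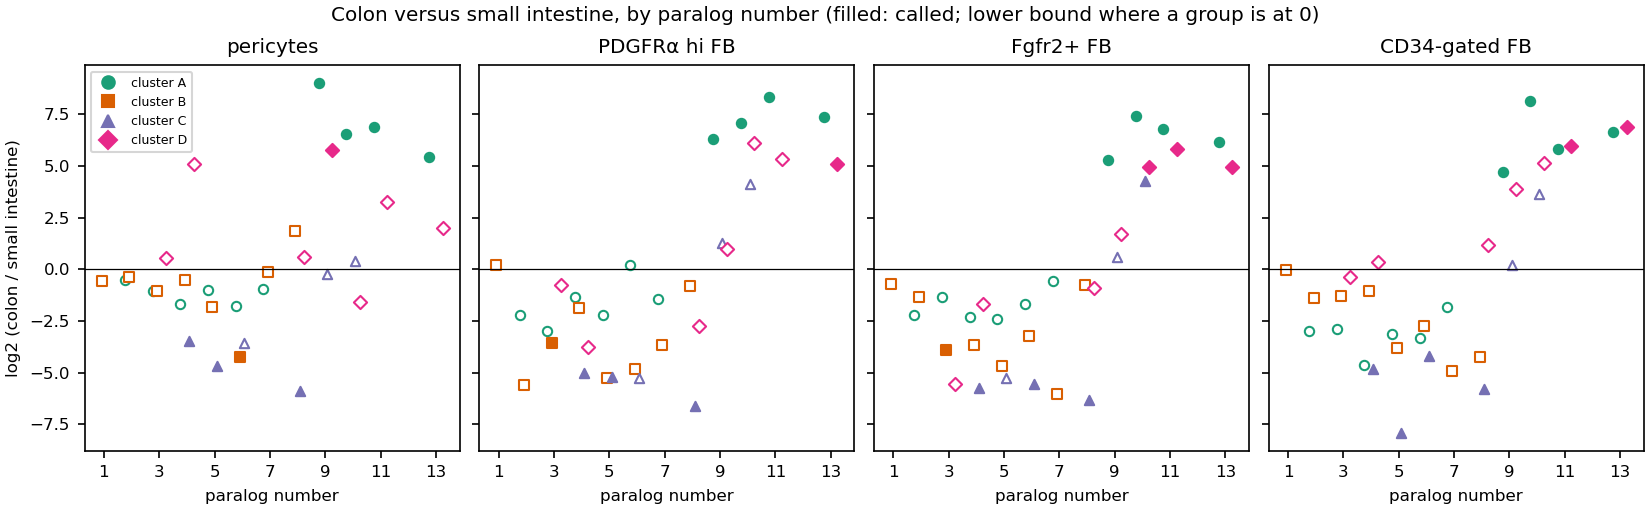
Log2 difference between colon and small intestine of the 31 tested Hox genes against paralog number, in 4 comparisons of matched populations (n = 3 per population; filled symbols, called; shapes and colours, clusters; the lower bound is drawn where all libraries on 1 side of the comparison are at 0). Filled symbols at paralogs 9 to 13 lie above 0 and those at paralogs 1 to 8 below it.

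The 5′ end of cluster A was higher in the colon in all 4 comparisons. *Hoxa13*, which takes part in hindgut and genitourinary patterning, had 0 counts in all 15 small intestinal libraries. In colonic libraries it ran from 3.47 to 61.0 CPM with a median of 42.3. By replicate it was at 9.68, 7.06 and 44.6 CPM in pericytes and 7.26, 3.47 and 16.2 CPM in CD81+ FB. Levels were higher in CD90+ FB (45.2, 54.7 and 47.6 CPM), Fgfr2+ FB (26.1, 42.3 and 41.5 CPM) and PDGFRα hi FB (44.2, 48.9 and 61.0 CPM). No colonic library overlapped the small intestine. Against a floor of 3 counts per library, *Hoxa13* was at least 44.1-fold higher in colonic pericytes (adjusted p = 2.24e-04), at least 168-fold in PDGFRα hi FB (4.89e-05), at least 72.4-fold in Fgfr2+ FB (1.13e-04) and at least 100.2-fold in CD34-gated FB (1.81e-04). The pericyte bound uses a mean that rests on replicate 3 (44.6 beside 9.68 and 7.06 CPM) and would be lower without it. The bound for CD34-gated FB uses the pooled mean of CD81+ and CD90+ FB and would be lower for CD81+ FB alone. The same holds for the CD34-gated bounds of *Hoxa11* and *Hoxd13* given below.

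*Hoxa11*, a paralog best known for limb and uterus development, had at most 1 count in any small intestinal library and 2.02 to 64.9 CPM in the colon (median 33.6). Its colonic levels were 64.9, 38.8 and 63.0 CPM in pericytes and 63.3, 49.5 and 58.0 CPM in Fgfr2+ FB. They were 30.2, 25.1 and 48.2 CPM in PDGFRα hi FB, 33.6, 18.3 and 25.4 CPM in CD90+ FB and 8.51, 2.02 and 11.7 CPM in CD81+ FB. CD81+ FB thus had the lowest mean *Hoxa11* and *Hoxa13* of the colonic populations, with *Hoxa13* overlapping that of pericytes. *Hoxa11* was at least 119.7-fold higher in colonic than small intestinal pericytes (adjusted p = 8.16e-06), at least 113-fold in Fgfr2+ FB (9.93e-06) and at least 57.2-fold in CD34-gated FB (2.41e-05). In PDGFRα hi FB, with 1 count in each small intestinal library, the means were 34.5 ± 12.1 and 0.102 ± 0.0404 CPM (adjusted p = 3.18e-05).

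*Hoxa10* had at most 2 counts in a small intestinal library, in CD34+ and Fgfr2+ FB. Colonic libraries held 9.24 to 93.1 CPM (median 30.5), with 19.4, 93.1 and 16.5 CPM in pericytes, 65.4, 30.5 and 9.24 CPM in CD81+ FB and 20.4, 44.5 and 19.2 CPM in CD90+ FB. Fgfr2+ FB had 24.9, 36.0 and 41.6 CPM and PDGFRα hi FB 20.8, 72.8 and 30.7 CPM. The colonic populations overlapped each other, and none overlapped the small intestine. The gene was at least 92.6-fold higher in colonic pericytes (adjusted p = 2.64e-04) and at least 136-fold in PDGFRα hi FB (1.72e-04), and the calls in Fgfr2+ FB (34.2 ± 8.51 against 0.291 ± 0.359 CPM) and CD34-gated FB (31.5 against 0.103 ± 0.108 CPM) had adjusted p values of 0.00219 and 0.00108. Both bounds use means raised by replicate 2 (93.1 CPM in pericytes and 72.8 CPM in PDGFRα hi FB) and would be lower without it.

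*Hoxa9*, at the border between the anterior and posterior groups, had the highest mean CPM of the Hox transcripts of colonic pericytes. In replicate 1 *Hoxa3*, *Hoxa11*, *Hoxb3*, *Hoxb4* and *Hoxb5* were above it. *Hoxa9* stood at 57.0, 333 and 143 CPM there, against 0.215, 0 and 0.738 CPM (1, 0 and 6 counts) in small intestinal pericytes. The log2 fold change was 9.03 ± 1.08 (SE), with an adjusted p of 3.82e-05. Leaving out any 1 library gave 8.25 to 10.85. Colonic FB had 6.09 to 29.2 CPM with a median of 19.6, so all 3 colonic pericyte libraries lay above all 12 colonic FB libraries. The only small intestinal FB with counts were CD34+ FB, with 1.05, 0.436 and 0.322 CPM (11, 5 and 3 counts). *Hoxa9* was at least 80.5-fold higher in colonic PDGFRα hi FB (adjusted p = 3.79e-05) and at least 39.6-fold in Fgfr2+ FB (9.63e-05). For the CD34-gated FB the log2 fold change was 4.70 ± 0.85 (adjusted p = 0.00495).

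Of 7 tested genes of cluster D, 3 were called between colonic pericytes and FB, *Hoxd4* higher in pericytes and *Hoxd10* and *Hoxd13* lower (9.29% of all tested genes were called higher there and 6.70% lower), and 0 among the 4 colonic FB populations (4.12% of all). *Hoxd13*, whose product acts with that of *Hoxa13* in the hindgut and the digits, had 0 counts in all 15 small intestinal libraries and a single count in the 3 colonic pericyte libraries. Colonic FB had 4.90 to 46.8 CPM (median 20.4): 25.1, 18.3 and 28.1 in CD81+ FB, 46.8, 44.4 and 42.2 in CD90+ FB, 5.37, 22.5 and 18.3 in Fgfr2+ FB and 4.90, 13.4 and 12.6 in PDGFRα hi FB. Every colonic FB library was above every pericyte library. It was called in the 3 FB comparisons between tissues, at least 118-fold higher in CD34-gated FB (adjusted p = 2.18e-04), at least 30.4-fold in Fgfr2+ FB (5.83e-04) and at least 33.8-fold in PDGFRα hi FB (5.97e-04). Between colonic pericytes and the mean of the 4 colonic FB populations, 0.0420 ± 0.0728 against 23.5 CPM, the adjusted p was 3.67e-05, and no left-out library ended that call. *Hoxa13*, its paralog in cluster A, was thus present in colonic pericytes where *Hoxd13* was not detected beyond 1 count.

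The other posterior genes of clusters C and D were called in fewer comparisons. In Fgfr2+ FB *Hoxd11* stood at 45.3, 11 and 31.2 CPM in the colon and at 0.0698, 1.08 and 0.346 CPM in the small intestine (log2 fold change 5.80 ± 1.45, adjusted p = 0.033), and it was also called in CD34-gated FB (5.97 ± 1.41, adjusted p = 0.0382). Those calls were lost without 5 of 6 and 7 of 9 libraries in turn, including every small intestinal one. In colonic pericytes *Hoxd11* was at 24.4, 0.378 and 0.575 CPM, high in replicate 1 alone. *Hoxd9* was called in pericytes, with 52.3, 17.1 and 1.58 CPM in the colon and 1.29, 0 and 0.123 CPM in the small intestine (5.76 ± 1.58, adjusted p = 0.0299). That call was lost without colonic replicate 1, small intestinal replicate 2 or small intestinal replicate 3 (highest adjusted p 0.0887). *Hoxc10* had 0 counts in all 15 small intestinal libraries, and its call in Fgfr2+ FB (12.4, 3.61 and 13.5 CPM, at least 19.5-fold, adjusted p = 0.0469) was lost without any 1 of the 6 libraries. About 7.3% of its sequence stretches are shared with *Hoxc5*. *Hoxc9* was the tested posterior gene called in none, with small intestinal means of 7.95 to 30 CPM and colonic means of 9.41 to 22.2 CPM.

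The 4 tested genes of cluster C with paralog numbers under 9 were called lower in the colon in 2 to 4 comparisons each. *Hoxc8*, a gene of thoracic identity, ran from 13.7 to 147 CPM in small intestinal libraries (median 62.9) and from 0 to 3.50 CPM in colonic ones (median 0.390). By replicate it was at 60.3, 47.1 and 39.2 CPM in small intestinal pericytes and 0.323, 0 and 1.94 CPM in colonic pericytes, a log2 fold change of -5.91 ± 1.2 (adjusted p = 0.00448). PDGFRα hi FB had 72.5, 68.8 and 110.3 CPM in the small intestine and 0, 0.383 and 2.17 CPM in the colon (-6.62 ± 1.25, adjusted p = 0.00277). Fgfr2+ FB had 62.9, 13.7 and 46.4 CPM against 0.310, 0.293 and 0.888 CPM (-6.35 ± 1.25, adjusted p = 0.004). The 2 tissues did not overlap in any of these cell types. Small intestinal CD34+ FB were at 57.6, 54.5 and 83.9 CPM, colonic CD81+ FB at 0.390, 0 and 2.00 CPM and colonic CD90+ FB at 3.50, 0.726 and 0.890 CPM (-5.80 ± 0.88, adjusted p = 2.96e-04). SMC had the highest mean *Hoxc8* of any population, with 125, 102 and 147 CPM. Without any 1 library the 4 log2 fold changes stayed between -8.71 and -5.34.

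*Hoxc4* had 28.4 to 178 CPM in the small intestine (median 63.1) and 0.245 to 14.1 CPM in the colon (median 1.88). Among colonic populations it was highest in pericytes, at 8.61, 14.1 and 11.3 CPM, against 178, 151 and 44.5 CPM in their small intestinal match (log2 fold change -3.46 ± 0.72, adjusted p = 0.00532). PDGFRα hi FB had 52.8, 77.1 and 32.4 CPM in the small intestine and 0.245, 3.32 and 1.36 CPM in the colon (-5.04 ± 0.79, adjusted p = 2.95e-04). Neither pair overlapped, and this held for the remaining FB as well. Fgfr2+ FB had 63.1, 39.1 and 28.4 CPM against 0.310, 0.780 and 1.33 CPM (-5.74 ± 0.82, adjusted p = 1.12e-04). CD34+ FB had 34.5, 69.0 and 41.3 CPM against 2.19, 0.379 and 1.25 CPM in CD81+ FB and 2.46, 1.88 and 2.48 CPM in CD90+ FB (-4.82 ± 0.58, adjusted p = 1.16e-05).

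Between these genes in cluster C, *Hoxc5* was called lower in the colon in 3 comparisons and *Hoxc6* in 2. *Hoxc5* held its call in every left-out fit for CD34-gated FB, with means of 0.0698 CPM in the colon and 19.6 ± 2.71 CPM in the small intestine (log2 fold change -7.94 ± 1.24, adjusted p = 5.40e-04). In PDGFRα hi FB (at least 37.5-fold lower, adjusted p = 0.00941) it was lost without any of the 3 colonic libraries. Its pericyte call rested on small intestinal replicate 3, at 94.0 CPM beside 5.15 and 2.02, and was lost without that library (-1.46, the weakest of its left-out values) and without colonic replicate 1 or 2. *Hoxc6* had the highest CPM per kb of the cluster averaged over all populations. In CPM it ran from 20.1 to 184 in the small intestine (median 48.4) and from 0 to 22.6 in the colon (median 0.861). Its calls in Fgfr2+ FB (-5.54 ± 1.45, adjusted p = 0.0462) and CD34-gated FB (-4.22 ± 1.01, adjusted p = 0.0428) were lost without any of 6 and without 8 of 9 libraries in turn.

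Cluster B was less uniform. *Hoxb3*, a hindbrain and branchial gene, was called lower in colonic PDGFRα hi FB (2.08, 4.72 and 1.22 CPM against 21.2, 41.8 and 33.8 CPM; log2 fold change -3.58 ± 0.69, adjusted p = 0.00334) and Fgfr2+ FB (13.1, 5.75 and 5.22 CPM against 125, 156 and 76.5 CPM; -3.89 ± 0.69, adjusted p = 0.00134). Neither pair overlapped. The call in PDGFRα hi FB was lost without colonic replicate 3 (adjusted p = 0.0521). In pericytes *Hoxb3* was at 86.7, 27.1 and 102 CPM in the colon and 239, 143 and 61.4 CPM in the small intestine, which overlapped. *Hoxb6* was called in pericytes (1.13 ± 1.26 against 21.8 ± 18.2 CPM, -4.23 ± 1.28, adjusted p = 0.0475), and that call was lost without 4 of the 6 libraries in turn: colonic replicates 1 and 2 and small intestinal replicates 2 and 3. *Hoxb8* was the tested gene of the cluster with the lowest CPM per kb averaged over all populations. Its median was 1.54 CPM over small intestinal and 0 CPM over colonic libraries.

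The 16 tested genes with no tissue call were *Hoxc9* and 15 genes of paralogs 1 to 8: *Hoxa2* to *Hoxa7*, *Hoxb1*, *Hoxb2*, *Hoxb4*, *Hoxb5*, *Hoxb7*, *Hoxb8*, *Hoxd3*, *Hoxd4* and *Hoxd8*. Their fitted differences were mostly below 0: *Hoxa5*, for example, had 10.3 to 164 CPM in small intestinal libraries (median 26.2) and 0.126 to 99.8 CPM in colonic ones (median 4.19). *Hoxa4* had 0 to 37.2 CPM in the small intestine (median 3.01) and 0 to 11.6 CPM in the colon (median 0.0780). *Hoxb1*, the most 3′ gene of its cluster, had similar ranges in both tissues, 1.07 to 17.0 and 0.756 to 17.2 CPM. A p that misses the threshold does not show equal levels, and several of these genes were high in 1 library of 3 in a population. *Hoxd3* and *Hoxd4* are uncertain throughout, since 61.1% and 49.1% of their sequence stretches occur in another annotated gene, mostly a read-through transcript across both. Smaller parts were shared for *Hoxa2* (13.7%) and *Hoxa3* (12.6%), mostly with *Gm28308*, a gene within cluster A.

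**Figure D4:**
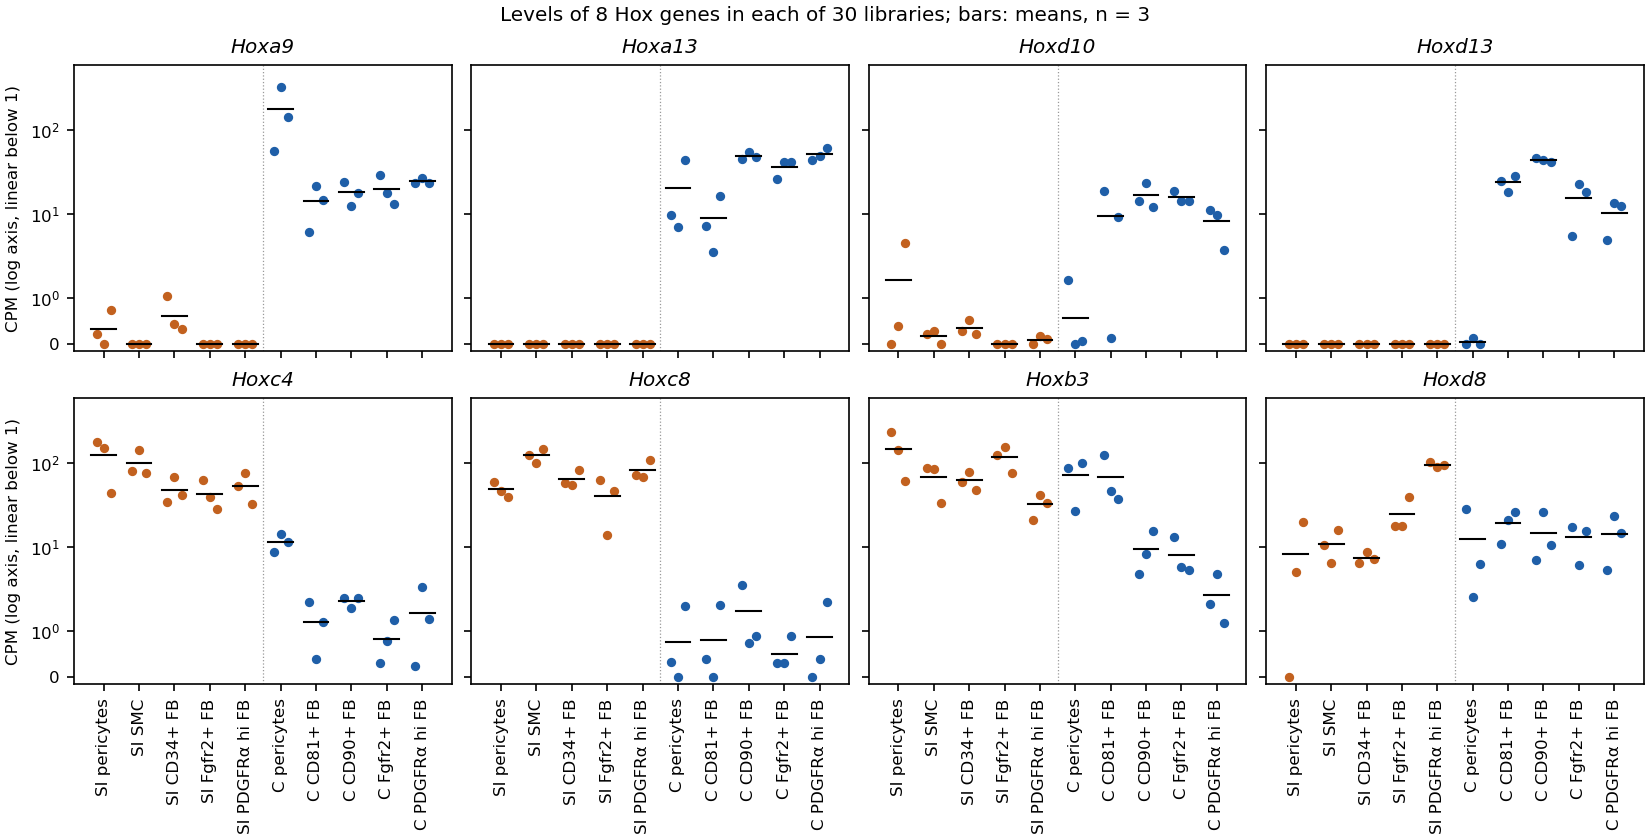
CPM of 8 Hox genes in each of the 30 libraries (points; orange, small intestine; blue, colon; bars, means of n = 3; log axis, linear below 1). *Hoxa9* is highest in colonic pericytes, *Hoxd10* and *Hoxd13* are near 0 in colonic pericytes and present in most colonic FB libraries, and *Hoxd8* is highest in small intestinal PDGFRα hi FB.

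Colonic pericytes were also set against the mean of the 4 colonic FB populations. There 14 Hox genes were called higher (9.29% of all tested genes were) and 2 lower (6.70%). Of the 14, 13 were of paralogs 1 to 8 and the other was *Hoxa9*, at 178 ± 141 against 19.2 CPM (log2 fold change 3.24 ± 0.50, adjusted p = 5.13e-05). *Hoxb5* was at 85.6, 59.4 and 9.99 CPM in colonic pericytes, and its FB means ran from 0.224 ± 0.284 to 8.20 ± 9.82 CPM, with replicate 3 of CD81+ FB above the lowest pericyte library (5.42 ± 0.78, adjusted p = 5.09e-06). *Hoxa5*, at 48.5, 99.8 and 7.54 CPM beside FB libraries of 0.126 to 17.5 CPM, overlapped the FB in 1 library (3.85 ± 0.63, adjusted p = 4.05e-05). *Hoxc4* did not overlap (3.01 ± 0.46, adjusted p = 1.66e-05). The read-through gene *Gm28230*, which shares 36.9% of the sequence stretches of *Hoxd4*, was also called higher, by edgeR but not by DESeq2. Calls for *Hoxa5*, *Hoxa9*, *Hoxb2*, *Hoxb3*, *Hoxb4*, *Hoxb5*, *Hoxc4*, *Hoxd4* and *Hoxd13* held without each of 15 libraries in turn, and that of *Hoxb3* was lost with length-scaled TPM.

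The other 7 of these calls rested on few libraries. *Hoxa2* was at 0.323, 6.05 and 89.3 CPM in colonic pericytes and fell below 0 without replicate 3 (log2 fold change 2.58 with it, -0.75 without). *Hoxb8* had 0, 50.7 and 0 CPM and *Hoxc6* 0.861, 22.6 and 0.144 CPM, and without replicate 2 their differences were -1.94 and -1.66. *Hoxa4* and *Hoxc5* lost their calls without pericyte replicate 3 and *Hoxa3* without replicate 1, with 0.75, 2.39 and 1.26 as their lowest log2 fold changes. *Hoxc6* also lost its call without any of 8 FB libraries. *Hoxd10*, called lower in pericytes (0.562 ± 0.912 against 12.5 CPM, adjusted p = 0.0349), lost its call without pericyte replicate 2 or 3.

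Whether pericytes differed from FB in the size of their tissue difference was tested as an interaction, colonic minus small intestinal pericytes against the mean of the same difference in PDGFRα hi and Fgfr2+ FB. It was past the threshold for 2 Hox genes (3.03% of all tested genes were), both of cluster D, with 10 at an unadjusted p under 0.05. *Hoxd10* had 1.61, 0 and 0.0718 CPM in colonic pericytes and 0, 0.379 and 4.55 CPM in small intestinal pericytes. In colonic FB it was at 18.7, 14.3 and 14.4 CPM in Fgfr2+ FB, 11, 9.70 and 3.67 CPM in PDGFRα hi FB and 14.4, 23.6 and 12.1 CPM in CD90+ FB, with 19.0, 0.126 and 9.16 CPM in CD81+ FB. Small intestinal Fgfr2+ FB had 0 counts and PDGFRα hi FB 0, 0.169 and 0.115 CPM. So *Hoxd10* was low in pericytes of both tissues, apart from 4.55 CPM in 1 small intestinal library, and higher in colonic FB, apart from CD81+ replicate 2. The tissue call in Fgfr2+ FB (at least 31.3-fold, adjusted p = 0.0115) was lost without small intestinal replicate 1 or 2. The interaction was -9.83 ± 2.14 (adjusted p = 0.011), a fitted value that depends on the prior count because 1 group is at 0. It ranged from -13.23 without colonic pericyte replicate 1 to -6.92 without small intestinal pericyte replicate 3 and stayed called in all 18 left-out fits.

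*Hoxd4* went the other way, with 1.08, 9.45 and 13.3 CPM in colonic and 0, 0.379 and 0.246 CPM in small intestinal pericytes. PDGFRα hi FB had 17.0, 11.1 and 5.05 CPM in the small intestine and 0.123, 1.79 and 0.543 CPM in the colon. Fgfr2+ FB had 10.3, 0.361 and 0.346 CPM against 1.76, 0.390 and 1.33 CPM. The interaction was 7.80 ± 1.91 (adjusted p = 0.0214), lost without small intestinal pericyte replicate 1 (adjusted p = 0.0584), and its reads are shared with *Hoxd3* and the read-through gene. Without small intestinal pericyte replicate 3 the count of Hox genes rose from 2 to 5, while DESeq2 called 6 (9.62% of all) and the fit to the 6 populations alone 1 (1.2%). The tissue difference of PDGFRα hi FB against that of Fgfr2+ FB was called for 0 Hox genes by edgeR (0.661% of all), with 3 at an unadjusted p under 0.05 and 0 called by DESeq2.

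Within the small intestine, the summed Hox level of pericytes (628 ± 99.4 CPM per kb) stood beside 256 ± 29 to 328 ± 124 in the FB. Pericytes against the mean of the 3 FB populations had 5 higher (9.48% of all tested genes) and 0 lower (7.07%), with 3 lower at an unadjusted p under 0.05 and 2 by DESeq2. *Hoxb5* had 354, 85.5 and 109.5 CPM in pericytes and means of 8.64 ± 6.07 to 63.9 ± 51.4 CPM in the FB (log2 fold change 2.90 ± 0.81, adjusted p = 0.011). *Hoxa5* had 129, 164 and 20.4 CPM against FB libraries of 10.3 to 46.2 CPM (2.16 ± 0.69, adjusted p = 0.0264), and *Hoxb1* 9.88, 17.0 and 6.40 CPM against FB libraries of 1.07 to 3.81 CPM (2.07 ± 0.69, adjusted p = 0.034). The groups overlapped for *Hoxa5* and *Hoxb5* but not for *Hoxb1*. *Hoxa9* and *Hoxd10*, the remaining 2, had at most 6 and 37 counts in a pericyte library and lost their calls without replicate 3. For *Hoxa9* the mean was higher in CD34+ FB (0.602 ± 0.391 CPM) than in pericytes (0.318 ± 0.380 CPM), while Fgfr2+ and PDGFRα hi FB were at 0. Without pericyte replicate 1 the number called was 2 and without replicate 2 it was 3, and DESeq2 called 8 (20.5% of all). *Hoxb5* lost its call without pericyte replicate 1, *Hoxa5* without replicate 1 or 2, and *Hoxb1* without either of these or any of 6 FB libraries.

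SMC against the same FB had 0 Hox genes called by edgeR (5.16% of all), with 4 at an unadjusted p under 0.05 and 3 called by DESeq2 (7.62%). Their *Hoxc6*, at 87.8, 96.5 and 184 CPM, lay above the FB libraries (20.1 to 54.2 CPM), and their *Hoxa13*, *Hoxa11*, *Hoxa10* and *Hoxa9* were at 0 counts. Pericytes against SMC had 1 call (10.1% of all), *Hoxa9*, with 1, 0 and 6 counts against 0, which is too few for a fold. It was lost without any library but pericyte replicate 2, and DESeq2 called 3 Hox genes (16.8% of all).

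Among the 3 small intestinal FB populations 1 Hox gene was called (4.47% of all), *Hoxa9*, whose 11, 5 and 3 counts were all in CD34+ FB (adjusted p = 0.00512). With so few counts it was not tested in the fit to these populations alone, which called 3 other Hox genes (8.32% of all). *Hoxd8*, in the middle of cluster D, had 104, 89.3 and 96.4 CPM in PDGFRα hi FB, 17.7, 17.9 and 39.1 CPM in Fgfr2+ FB and 6.39, 8.72 and 7.20 CPM in CD34+ FB. The 3 populations did not overlap for *Hoxd8*, and PDGFRα hi FB had the highest level of any library set, but the difference of 3.70 on the log2 scale missed the threshold (adjusted p = 0.0601). DESeq2 called *Hoxd8* among 3 Hox genes (6.3% of all). The count was 2 without small intestinal Fgfr2+ FB replicate 1.

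Among the 4 colonic FB populations 4 Hox genes were called (4.12% of all), all of cluster B. *Hoxb3* was at 124, 46.1 and 37.7 CPM in CD81+ FB, 4.73, 8.29 and 15.4 CPM in CD90+ FB, 13.1, 5.75 and 5.22 CPM in Fgfr2+ FB and 2.08, 4.72 and 1.22 CPM in PDGFRα hi FB. CD81+ FB stood above the other 3 populations in every library (largest difference 4.69 on the log2 scale, adjusted p = 4.82e-05), without exception in the left-out fits. *Hoxb5*, *Hoxb6* and *Hoxb7* also had their highest mean in CD81+ FB, with 8.20 ± 9.82, 10.9 ± 9.98 and 1.80 ± 1.97 CPM, and the call of each was lost without at least 5 of 12 libraries. The fit to these 4 populations alone did not call *Hoxb5* or *Hoxb6* and did not test *Hoxb7*. The count was 2 without any CD90+ FB library or without PDGFRα hi FB replicate 1, and 8 by DESeq2 (5.86% of all). Among colonic FB, the CD81+ population thus combined the highest summed cluster B level with the lowest mean *Hoxa11* and *Hoxa13*.

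TALE homeodomain proteins (MEIS, PBX and PKNOX) bind DNA together with Hox proteins, and 8 of their genes were tested here. None was called between tissues in any FB comparison by edgeR or DESeq2, with 0 genes at an unadjusted p under 0.05. In those comparisons 0.137% to 0.941% of all tested genes were called in each direction, so 0 of 8 says little about these genes. In pericytes *Pknox2* was higher in the colon, at 179.9, 26.3 and 67.4 CPM against 1.29, 3.79 and 23.5 CPM, with no overlap (log2 fold change 3.24 ± 0.70, adjusted p = 0.00699; 2.28 to 5.12 without any 1 library). It was also lower in small intestinal pericytes than in the FB there (-2.82 ± 0.63, adjusted p = 0.00187). *Meis1* and *Meis2* differed among colonic FB, where they were highest in CD81+ FB (189 ± 66.2 and 338 ± 32.1 CPM) and lowest in PDGFRα hi FB (28.0 ± 4.14 and 63.1 ± 4.98 CPM), with adjusted p values of 0.00355 and 1.47e-04. These calls held without each library in turn. *Meis3*, *Pbx3* and *Pknox2* had 1 further call each that was lost without several libraries (*Meis3* in small intestinal pericytes against FB, *Pbx3* among small intestinal FB, *Pknox2* against SMC), as was the *Pknox2* interaction (2.91 ± 0.81, adjusted p = 0.0436).

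Of 14 listed upstream regulators of Hox genes, 11 were tested, and 1 was called between tissues, in pericytes, where 2.74% of all tested genes were called higher in the colon. The caudal-type genes *Cdx1* and *Cdx2* had 0 counts in all 30 libraries, and *Cdx4* was seen in replicate 3 of small intestinal pericytes alone (0.246 CPM). *Suz12*, a Polycomb subunit, was called higher in colonic pericytes (56.1 ± 14.2 against 17.8 ± 1.92 CPM, log2 fold change 1.66 ± 0.51, adjusted p = 0.0492) but not without any 1 of the 6 libraries. No regulator was called in the FB comparisons by edgeR, with 1 at an unadjusted p under 0.05 and 1 called by DESeq2 in PDGFRα hi FB and 0 in the other FB. That of PDGFRα hi FB was *Rarg*, a retinoic acid receptor, which in these FB was at 17.9, 40.5 and 26.5 CPM in the colon and 0.938, 1.35 and 0 CPM in the other tissue (5.15 ± 1.40, adjusted p = 0.0776 in edgeR). It also did not overlap in pericytes (22.2, 22.3 and 28.6 against 0, 3.91 and 9.84 CPM, adjusted p = 0.227) and Fgfr2+ FB (41.8, 37.7 and 39.4 against 10.4, 0 and 11.1 CPM, adjusted p = 0.405), but did in CD34-gated FB. *Gdf11*, a signal that sets posterior Hox expression in the embryo, was higher in pericytes than in FB of the colon (167, 258 and 280.2 CPM against FB means of 11.1 to 31.4 CPM, 3.77 ± 0.45, adjusted p = 2.47e-07). In the small intestine it was at 22.3, 119.8 and 266 CPM in pericytes (2.41 ± 0.49, adjusted p = 7.28e-04), lost without replicate 3. *Ezh2*, a histone methyltransferase, was called higher in pericytes of both tissues and *Rarb*, another such receptor, in those of the colon, and each was lost without at least 1 pericyte library. For small intestinal *Ezh2* the difference went to -0.84 in a left-out fit.

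Of 16 genes beyond the ends of the clusters but within 200 kb of them, 13 were tested. In comparisons between tissues 2 were called in pericytes (2.74% of all tested genes were called higher and 2.98% lower). Fgfr2+ FB had 1 (0.941% higher, 0.513% lower), CD34-gated FB 1 (0.137%, 0.507%) and PDGFRα hi FB 0 (0.627%, 0.336%). With 13 genes these counts are too small to set against the shares. *Skap2*, the neighbour on the 3′ side of cluster A that encodes a signalling adaptor, was called lower in the colon in 3 comparisons. It was at 11.1, 4.03 and 11.4 CPM in colonic and 124, 16.0 and 64.8 CPM in small intestinal pericytes (log2 fold change -2.94 ± 0.72, adjusted p = 0.0165). Fgfr2+ FB had 14.6, 5.07 and 15.8 CPM against 272, 64.6 and 61.6 CPM (-3.49 ± 0.74, adjusted p = 0.00794). CD34-gated FB had a mean of 9.59 against 54.9 ± 4.37 CPM (-2.71 ± 0.56, adjusted p = 0.0108), and in PDGFRα hi FB, with 27.5 ± 5.44 against 83.4 ± 14.6 CPM, it was not called (adjusted p = 0.605). No pair overlapped. These calls were lost without replicate 2 of the colonic or replicate 1 of the small intestinal population in pericytes and in Fgfr2+ FB, and without small intestinal replicate 1 in CD34-gated FB. *Snf8*, which encodes a subunit of an endosomal sorting complex and lies beyond the 5′ end of cluster B, was called higher in colonic pericytes (7.96, 83.1 and 7.04 CPM against 0.215, 3.16 and 1.48 CPM, 4.3 ± 1.19, adjusted p = 0.0317), lost without colonic replicate 2 or small intestinal replicate 1 or 3.

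Promoter sequences from RefSeq (GRCm38.p6, 250 bases before to 50 after a start) were held for 22 of the 38 genes, with 24 windows. The letters TTTATG, the core bound by CDX proteins, were searched on both strands and occurred in 11.9% of 32851 mouse promoters and in windows of 5 of the 22 genes, *Hoxa7*, *Hoxb8*, *Hoxd3*, *Hoxd4* and *Hoxd11*. TGATNNAT, bound by PBX with HOX proteins, occurred in 8.85% of promoters and in 4 of the 22, *Hoxa2*, *Hoxb1*, *Hoxb8* and *Hoxd11*. Shown here are the window of *Hoxa13*, higher in all 4 colonic comparisons and with 81.0% G and C, that of *Hoxc4*, lower in all 4 (60.3%), and the 1 of *Hoxd11*, higher in 2 (45.7%), that holds a TTTATG match. Capitals mark TTTATG or its reverse complement, and the windows lie at chr6:52260831-52261130 (minus strand), chr15:103034145-103034444 (plus strand) and chr2:74679308-74679607 (plus strand). A match is a description of these letters, and no match speaks of this window alone.
Hoxa13: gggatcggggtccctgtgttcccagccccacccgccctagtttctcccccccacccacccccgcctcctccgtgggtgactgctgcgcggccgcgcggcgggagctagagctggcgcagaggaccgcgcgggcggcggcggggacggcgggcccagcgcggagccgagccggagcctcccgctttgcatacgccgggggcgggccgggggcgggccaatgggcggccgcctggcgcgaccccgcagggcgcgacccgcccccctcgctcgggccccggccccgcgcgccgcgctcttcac
Hoxc4: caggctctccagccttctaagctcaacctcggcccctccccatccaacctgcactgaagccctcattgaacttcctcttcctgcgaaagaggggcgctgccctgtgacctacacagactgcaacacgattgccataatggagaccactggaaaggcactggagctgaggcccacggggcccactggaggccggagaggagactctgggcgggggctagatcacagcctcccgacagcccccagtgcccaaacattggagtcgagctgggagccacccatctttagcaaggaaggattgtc
Hoxd11: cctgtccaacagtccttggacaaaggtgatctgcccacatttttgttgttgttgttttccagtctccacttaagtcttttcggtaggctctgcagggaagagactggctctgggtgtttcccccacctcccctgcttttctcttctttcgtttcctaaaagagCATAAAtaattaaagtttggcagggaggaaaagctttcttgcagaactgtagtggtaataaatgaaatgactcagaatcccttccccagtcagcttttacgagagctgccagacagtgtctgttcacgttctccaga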

How the data were processed

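Per the labels and methods, reads were checked with FastQC 0.11.2, trimmed with Trim Galore 0.4.0 and quantified by the authors with kallisto 0.42.5 (mm10/GRCm38) from an unstranded kit, so overlapping and antisense genes cannot be told apart. The deposited estimated counts per transcript were summed to gene symbols and rounded to whole counts, and the deposited TPM values served only for the length-scaled alternative. One model with a mean for each of 10 populations was fitted to all 30 libraries in edgeR 4.0.16 (R 4.3.3, limma 3.58.1) with TMM normalization, keeping genes that reached 6 counts in 3 or more libraries. CPM use the same normalization, and CPM per kb divide by effective length. The ± after a log2 fold change is its SE, and after a level its SD. Alternatives were DESeq2 1.42.0, other normalizations, filters and gene sets, a replicate block, only the populations compared, and 30 left-out libraries. The script was tested on simulated data. The members and lists were chosen with earlier results of these data known. Values in every library were planned for genes called in every matched comparison of tissues or in an interaction and for the highest and lowest of each cluster. Library values of other called members were added after the results were seen. A further gene of the family and a gene of the cofactor list are not reported here, and the noncoding genes of the clusters were not analysed here.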

Additional observations from a re-analysis of the deposited data

Results flagged for a closer look

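A pair of Hox genes of cluster D had a tissue difference in pericytes that differed from that in FB by a test of the interaction, as did 3.03% of all tested genes. *Hoxd10* had an interaction of -9.83 on the log2 scale, with more in colonic than small intestinal FB and low levels in pericytes of both tissues. *Hoxd4*, whose reads are shared with neighbouring genes, had an interaction of 7.80, with more in colonic than small intestinal pericytes and less in colonic than small intestinal PDGFRα hi FB. Fgfr2+ FB were mixed for *Hoxd4* (1.76, 0.390 and 1.33 against 10.3, 0.361 and 0.346 CPM), it was called in no comparison between tissues, and its interaction call was lost without small intestinal pericyte replicate 1 and in the fit to the populations compared. Sort and cell-type markers also passed the interaction test, among them *Tek* (-11.41) and *Myh11* (4.07). The causes were not tested.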

How the results depend on the processing

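Counts of Hox genes called under other settings stayed within 1.5 times the reported count in 209 cases and moved further in 34. Leaving out a colonic pericyte library turned the sign of 3 called differences between colonic pericytes and FB, to -0.75 for *Hoxa2*, -1.94 for *Hoxb8* and -1.66 for *Hoxc6*, and no call between tissues turned. Of 693 refits of 47 named log2 fold changes, 614 kept direction and side of the threshold, 73 fell short of it and 6 newly passed it. DESeq2 gave 17 for PDGFRα hi FB, 17 for CD34-gated FB, 8 for small intestinal pericytes against FB, 3 for SMC against FB, 3 for pericytes against SMC, 3 among small intestinal FB, 8 among colonic FB and 6 for the pericyte interaction. Without the count filter the counts were 14 for PDGFRα hi FB, 1 for SMC against FB, 2 for pericytes against SMC, 2 among small intestinal FB and 7 among colonic FB. Fits to only the populations compared gave 0 for pericytes, 19 for PDGFRα hi FB, 1 for SMC against FB, 0 for pericytes against SMC, 3 among small intestinal FB and 1 for the pericyte interaction. Length-scaled TPM gave 0 for pericytes against SMC. Leaving out 1 library gave 2 to 6 for small intestinal pericytes against FB, 0 to 1 for pericytes against SMC, 1 to 2 among small intestinal FB, 2 to 5 among colonic FB and 2 to 5 for the pericyte interaction. The cause was not tested. With the replicate number as a block, counts in the order of the report's comparisons between tissues were 7 (pericytes), 9 (PDGFRα hi FB), 9 (Fgfr2+ FB) and 9 (CD34-gated FB), and 5, 0, 0, 14, 1, 3, 3 and 0 for small intestinal pericytes against FB, SMC against FB, pericytes against SMC, colonic pericytes against FB, among small intestinal FB, among colonic FB, the pericyte interaction and the FB interaction. The block ended the calls between tissues of *Hoxb6* and *Hoxc5* in pericytes, *Hoxc6*, *Hoxc10* and *Hoxd11* in Fgfr2+ FB and *Hoxd11* in CD34-gated FB, and within tissues those of *Hoxa9* (small intestinal pericytes against SMC), *Hoxa4* and *Hoxc6* (colonic pericytes against FB) and *Hoxb7* (among colonic FB). Deviations of same-numbered libraries correlated weakly over 135 pairs (r from -0.112 to 0.135, mean 0.00754, against -0.00342 for other pairs), but 23 of 30 libraries correlated best with their own number, a hint from the data. The labels draw both tissues from 3 mice and do not tie these to replicate numbers. Depth limits the genes near 0, above all in replicate 3 of small intestinal Fgfr2+ FB.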
